A study of Mus musculus with 6 samples.

Results

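The 10 genes described here encode the enzymes that make NADPH in most mouse cells and the kinases that make its precursor NADP+. They were chosen by their role in making NADPH and NADP+: G6pdx, Pgls and Pgd of the oxidative pentose phosphate pathway (PPP), the malic enzymes Me1 and Me2, the isocitrate dehydrogenases Idh1 and Idh2, the transhydrogenase Nnt, and the NAD kinases Nadk and Nadk2. All 10 were among the 16381 genes of the expression table, and all 10 were tested. RNA was sequenced from group 2 innate lymphoid cells (ILC2s), innate lymphocytes that secrete the type 2 cytokines IL-5 and IL-13, in 3 melatonin and 3 vehicle samples. According to the methods, wild-type BALB/c mice described as female and 6 to 8 weeks old received 0.5 µg of recombinant IL-33 intranasally on each of 3 days, and lung ILC2s were sorted as live CD45+, lineage-negative, ST2+, CD127+ cells to a purity above 95%. The sorted cells, activated by IL-33 in both groups, were cultured for 24 h with 250 µM melatonin or with its DMSO vehicle. The comparison asks whether transcripts for NADPH supply differ between melatonin-treated and vehicle-treated ILC2s. Sources do not state whether the samples of a group came from separate mice or cultures, so each p-value measures only the spread between these samples, which may be technical in part.

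NADPH is the electron donor with which cells regenerate reduced glutathione and thioredoxin and build fatty acids and sterols. In the cytosol it comes mainly from the oxidative PPP, with contributions from ME1 and IDH1, while IDH2 and NNT supply it inside mitochondria. NAD kinases phosphorylate NAD+ to NADP+ and so set the size of the pool that the other enzymes reduce. Several of these genes are known targets of NRF2, a transcription factor that binds antioxidant response elements together with small MAF proteins.

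The promoters of G6pdx and Me1 are shown because each holds the core letters of an antioxidant response element, TGACNNNGC, close to the start of transcription, and because both genes rose with melatonin. Sequences were taken from RefSeq on build GRCm38.p6, from 250 bases before the start, 5′ to 3′ on the gene's strand, and capitals mark the letters of the match. For G6pdx, at chrX:74428876-74429130 on the minus strand, the first base of the match lies at -57 and the core is read on the opposite strand. For Me1, at chr9:86695910-86696164 on the minus strand, the first base of the match lies at -6.
G6pdx: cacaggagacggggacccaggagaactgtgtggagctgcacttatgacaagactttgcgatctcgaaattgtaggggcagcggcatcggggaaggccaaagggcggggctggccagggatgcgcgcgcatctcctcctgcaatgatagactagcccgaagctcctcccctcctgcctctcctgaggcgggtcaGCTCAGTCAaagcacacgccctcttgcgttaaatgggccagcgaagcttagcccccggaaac
Me1: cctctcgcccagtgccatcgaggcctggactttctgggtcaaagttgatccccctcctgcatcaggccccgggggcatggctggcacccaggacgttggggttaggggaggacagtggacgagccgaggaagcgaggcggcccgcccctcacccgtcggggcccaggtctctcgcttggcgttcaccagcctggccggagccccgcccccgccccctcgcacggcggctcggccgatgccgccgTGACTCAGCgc
Promoter windows of 300 bases, 250 before and 50 after a start, were present for 7 of the 10 genes (G6pdx, Pgd, Pgls, Me1, Idh1, Idh2 and Nadk). The core was found on either strand in 3 of these 7 genes (42.9%), with the third match in the window of an alternative start of Pgd, against 14.0% of 27025 genes with a window. Counted by window it was found in 3 of 11 windows of these genes (27.3%) and in 4071 of 32851 windows in all (12.4%). No match was found in the windows of Pgls, Idh1, Idh2 or Nadk, which says only that these letters are not in those 300 bases. A match describes the sequence and not binding. Build GRCm38.p6 was used for these promoters only, and all gene positions given elsewhere are on GRCm39, the build of the expression values.

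Values are normalized counts: reads per gene as assigned by the authors, divided by a size factor per library. The 6 libraries held an estimated 17056121 to 20511579 reads assigned to genes, with medians of 18248483 for melatonin and 20370774 for vehicle. Sex-linked transcripts split the libraries. Xist, the RNA of the inactive X chromosome, read 0, 579 and 1091 in melatonin replicates 1, 2 and 3 and 13.6, 7.46 and 5.81 in vehicle replicates 1, 2 and 3. Ddx3y, a Y-linked gene, read 1071, 0 and 0 with melatonin and 861, 907 and 746 with vehicle. Melatonin replicate 1 and all 3 vehicle samples thus carried Y-linked RNA, against the description of the mice as female, and melatonin replicates 2 and 3 stood apart from the other 4 libraries. The 3 melatonin samples therefore did not all come from one pool of cells, while these genes do not separate the vehicle samples. The calls and counts by gene list are therefore also given without those 2 libraries. The library labels number the melatonin samples from 20 to 22 and the vehicle samples from 32 to 34, and only the vehicle labels carry the suffix v1. Any preparation difference that follows these labels cannot be told apart from treatment. Across the table, with the authors' scaling, about as many genes rose as fell, and the median log2 fold change over the 14419 genes tested was -0.00. That balance depends on the scaling: 2898 rose and 4130 fell with upper-quartile scaling. With libraries scaled to the same total, 3865 rose and 3318 fell.

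Melatonin-treated ILC2s carried more transcript for 5 of the 10 genes and less for 2. G6pdx, Me1, Idh1, Nnt and Nadk2 rose (adjusted p under 0.05 in limma over all genes tested), Pgls and Idh2 fell, and Pgd, Me2 and Nadk did not pass. Over all genes tested, 24.5% rose and 24.7% fell by the same rule, so 5 of 10 higher stands beside a background of 24.5% 2 of 10 lower beside 24.7%, and 7 of 10 called in either direction beside 49.2%. The groups did not overlap for any of the 10 genes, 6 with every melatonin value above and 4 with every melatonin value below the vehicle values. Over all genes tested the groups did not overlap in 60.4%, with 30.0% above and 30.3% below. The median log2 fold change of the 10 genes was 0.32. In bulk RNA, fewer cells of a type and less RNA per cell cannot be told apart. An exact permutation test of 3 against 3 samples cannot go below p = 0.1, so the calls rest on the limma fit, which shares its estimate of spread across genes.

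**Figure D1:**
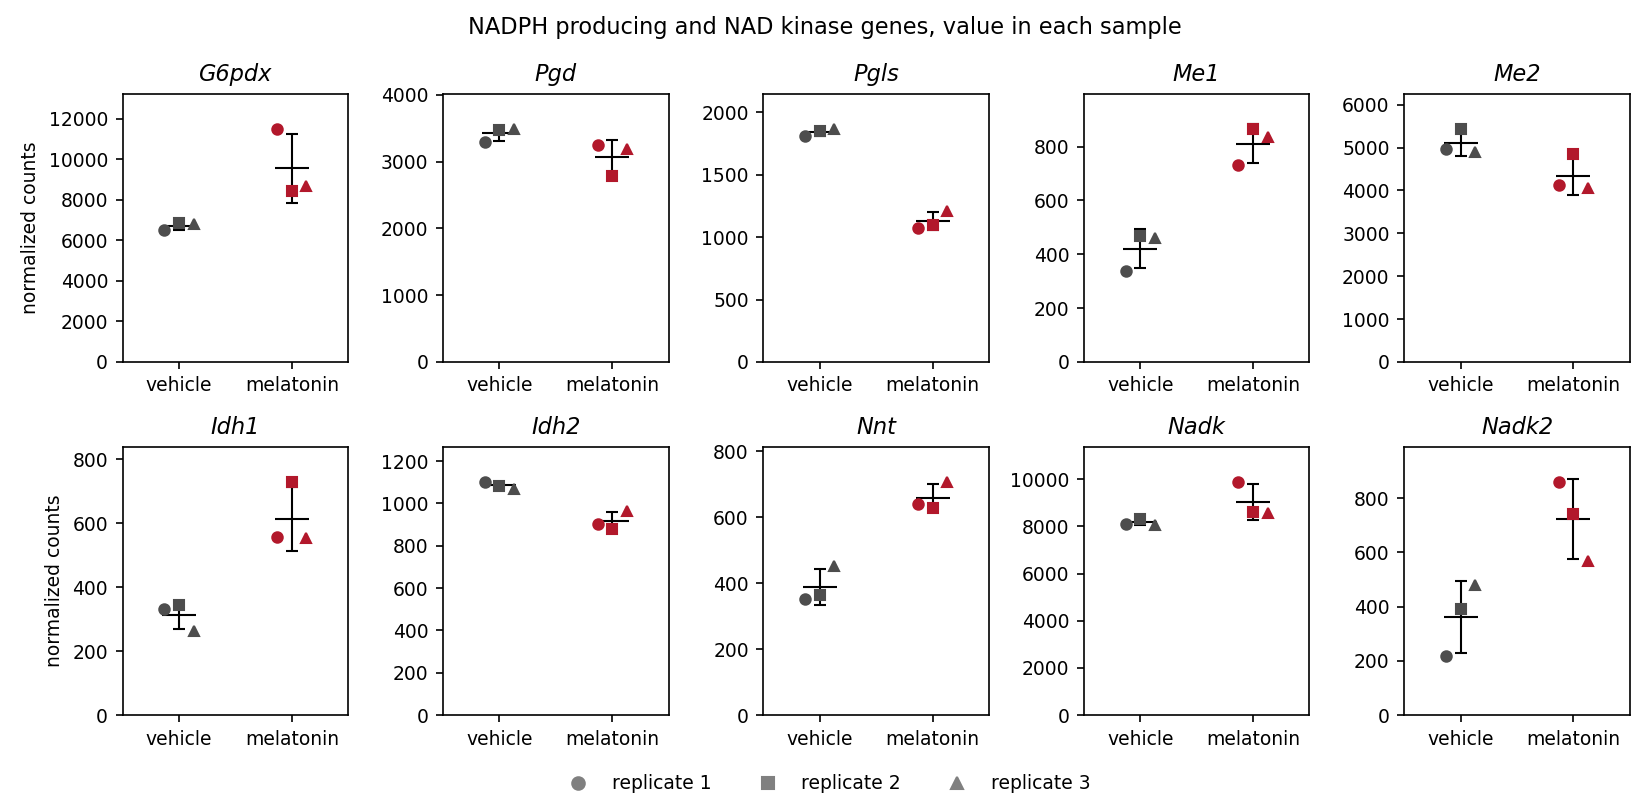
Normalized counts of the 10 genes in each sample, one panel per gene, with points for samples (circle, square and triangle for replicates 1, 2 and 3), a horizontal bar for the mean and an error bar for the SD. The melatonin points lie wholly above or wholly below the vehicle points in each of the 10 panels, and G6pdx of melatonin replicate 1, at 11511, sits apart from the other 2 melatonin samples.

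G6pdx encodes the rate-limiting enzyme of the PPP and the first to yield NADPH (ENSMUSG00000031400, GRCm39 chromosome X, 73449857 to 73472819, minus strand). Its normalized counts were 11511, 8441 and 8692 in melatonin replicates 1, 2 and 3 and 6496, 6842 and 6800 in vehicle replicates 1, 2 and 3. Each melatonin sample lay above each vehicle sample, and the vehicle samples lay close together. The means were 9548 ± 1705 and 6713 ± 189 (SD, n = 3 each), a ratio of 1.42. The log2 fold change was 0.49 (SE 0.12, 95% interval 0.23 to 0.76, adjusted p = 0.00803 from limma).

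Because G6pdx is X-linked and the melatonin libraries differ in sex-linked RNA, the 3 melatonin replicates were compared for it. Melatonin replicate 1, which lacked Xist and carried Y-linked RNA, had the highest G6pdx, 0.43 on the log2 scale above the mean of replicates 2 and 3. The same difference over the 317 X-linked genes averaging 100 normalized counts or more had a median of -0.04, with quartiles at -0.22 and 0.14 and a range of -0.63 to 0.49 from the 5th to the 95th percentile. Over 9649 autosomal genes the median was 0.01 and that range was -0.52 to 0.53. G6pdx lay above 93.4% of the X-linked and 91.9% of the autosomal genes. Other X-linked metabolic genes stood on both sides of 0: Atp6ap1, a subunit of the vacuolar proton pump, at 0.36 and Prps2, a phosphoribosyl pyrophosphate synthetase, at 0.28 were higher in replicate 1, while Pgk1, a glycolytic kinase, at -0.36 and Prps1, the paralog of Prps2, at -0.21 were lower. Autosomal genes among the 10 were also spread, from 0.39 for Nadk2 to -0.22 for Me1.
With replicate 1 left out, the G6pdx log2 fold change fell to 0.35, and without replicates 2 and 3 it was 0.78, where the lone melatonin sample is assumed to vary like the vehicle samples. Of its 50-base words, 3.40% are shared with the autosomal copy G6pd2, which read 29.1 to 33.6 with vehicle and 42.6 to 63.5 with melatonin, and 2.43% with Ikbkg on the opposite strand, which read 925 to 1066 and 1335 to 1665. G6pdx was called higher in all 20 alternative analyses that could include it. The difference between the melatonin replicates is described here and was not tested.

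**Figure D2:**
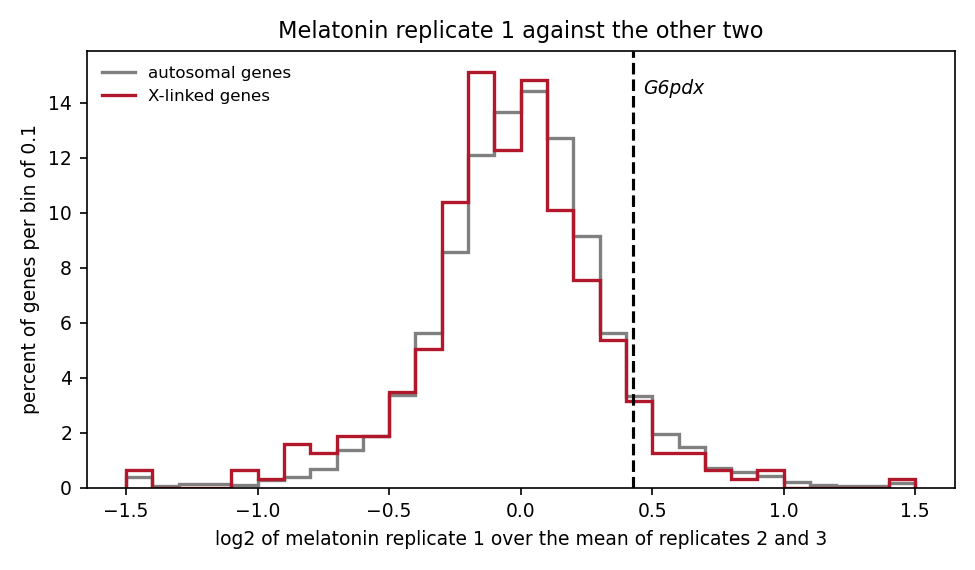
Distribution of the log2 ratio of melatonin replicate 1 to the mean of melatonin replicates 2 and 3 over X-linked and autosomal genes averaging 100 normalized counts or more, with G6pdx marked and values beyond the axis placed in the end bins. Both distributions centre near 0, with medians of -0.04 and 0.01, and G6pdx at 0.43 lies in the upper part of each.

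Pgls encodes 6-phosphogluconolactonase, which hydrolyses the lactone formed in the first step of the pathway (ENSMUSG00000031807, chromosome 8, 72044202 to 72053768, plus strand). It read 1074, 1098 and 1209 with melatonin and 1808, 1848 and 1871 with vehicle. All 3 melatonin samples were lower than all 3 vehicle samples, with narrow spread in both groups. The means were 1127 ± 72.0 and 1842 ± 31.8 (SD, n = 3 each), a ratio of 0.612, and the log2 fold change was -0.71 (SE 0.08, 95% interval -0.89 to -0.53, adjusted p = 0.000255 from limma). Pgd encodes 6-phosphogluconate dehydrogenase, the next NADPH-yielding step (ENSMUSG00000028961, chromosome 4, 149233246 to 149251228, minus strand). It read 3253, 2784 and 3182 with melatonin and 3299, 3473 and 3495 with vehicle. Melatonin replicate 1 came close to the lowest vehicle sample, and the difference did not pass (log2 fold change -0.16, SE 0.08, 95% interval -0.35 to 0.03, adjusted p = 0.143 from limma), with a call in 3 of 21 alternative analyses. The 3 steps of the oxidative branch therefore had 1 gene higher, 1 lower and 1 that did not pass.

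Me1 encodes the cytosolic malic enzyme, which converts malate to pyruvate and yields NADPH (ENSMUSG00000032418, chromosome 9, 86462646 to 86578104, minus strand). It read 730, 867 and 836 with melatonin and 336, 468 and 459 with vehicle. Every melatonin sample exceeded every vehicle sample, and vehicle replicate 1 was the lowest of the 6. The means were 811 ± 71.7 and 421 ± 73.7 (SD, n = 3 each), a ratio of 1.93, with a log2 fold change of 0.96 (SE 0.14, 95% interval 0.63 to 1.28, adjusted p = 0.000903 from limma). The call stood in all alternatives, and leaving out single samples gave 0.80 to 1.04. Of the 50-base words of Me1 transcripts, 51.0% are shared with Rwdd2a on the opposite strand, which read 53.2, 71.0 and 84.4 with melatonin and 54.1, 34.7 and 31.5 with vehicle. The kit does not mark strand, and whether the counting used strand is not given in the sources used here, so reads from the 2 genes may not be separable. A further 19.5% of the Me1 words occur in Gm7049.
Me2 encodes the mitochondrial malic enzyme, which works mainly with NAD+ (ENSMUSG00000024556, chromosome 18, 73900981 to 73948865, minus strand). It read 4126, 4862 and 4052 with melatonin and 4975, 5446 and 4891 with vehicle. Melatonin replicate 2 came close to the lowest vehicle sample, although the groups did not overlap. Its log2 fold change was -0.23 (SE 0.09, 95% interval -0.44 to -0.03) and the adjusted p = 0.0607 from limma missed the threshold, though Me2 was called lower in 6 of 21 alternative analyses.

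Idh1 encodes the isocitrate dehydrogenase of cytosol and peroxisomes (ENSMUSG00000025950, chromosome 1, 65196781 to 65225721, minus strand). It read 557, 730 and 554 with melatonin and 332, 345 and 262 with vehicle. Melatonin replicate 2 was the highest of the 6 and vehicle replicate 3 the lowest, with a clear gap between the groups. The means were 613 ± 101 and 313 ± 44.5 (SD, n = 3 each), a ratio of 1.96, with a log2 fold change of 0.97 (SE 0.15, 95% interval 0.62 to 1.31, adjusted p = 0.00115 from limma). Idh2 encodes the NADP+-dependent enzyme of mitochondria (ENSMUSG00000030541, chromosome 7, 79741431 to 79765535, minus strand). It read 904, 881 and 965 with melatonin and 1102, 1084 and 1068 with vehicle. The melatonin samples were all lower, by a small margin. Its log2 fold change was -0.24 (SE 0.08, 95% interval -0.43 to -0.06, adjusted p = 0.0343 from limma), and the call was lost in 8 of 21 alternative analyses, including those that left out any one of the vehicle samples.

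Nnt encodes the nicotinamide nucleotide transhydrogenase of the inner mitochondrial membrane, which uses the proton gradient to pass electrons from NADH to NADP+ (ENSMUSG00000025453, chromosome 13, 119470859 to 119566380, minus strand). It read 638, 629 and 707 with melatonin and 350, 365 and 451 with vehicle. All melatonin samples were above all vehicle samples. The means were 658 ± 42.8 and 389 ± 54.0 (SD, n = 3 each), a ratio of 1.69, with a log2 fold change of 0.76 (SE 0.12, 95% interval 0.49 to 1.04, adjusted p = 0.00121 from limma). The reference genome comes from the C57BL/6J strain, whose Nnt lacks exons that BALB/c mice carry, so reads from those exons could not be placed in either group.

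Nadk encodes the cytosolic NAD kinase (ENSMUSG00000029063, chromosome 4, 155646806 to 155675465, plus strand). It read 9897, 8635 and 8557 with melatonin and 8119, 8312 and 8079 with vehicle. Melatonin replicate 1 was the highest, and the difference did not pass (log2 fold change 0.14, SE 0.08, 95% interval -0.04 to 0.32, adjusted p = 0.174 from limma), with a call in 3 of 21 alternative analyses. Nadk2 encodes the mitochondrial NAD kinase (ENSMUSG00000022253, chromosome 15, 9071264 to 9110979, plus strand). It read 860, 741 and 569 with melatonin and 217, 391 and 480 with vehicle. Its groups were the most widely spread of the 10 relative to their means, and vehicle replicate 1 was far below the other vehicle samples. The means were 723 ± 146 and 362 ± 134 (SD, n = 3 each), a ratio of 2.00, with a log2 fold change of 1.05 (SE 0.27, 95% interval 0.43 to 1.67, adjusted p = 0.0121 from limma). Without vehicle replicate 1 the log2 fold change of Nadk2 was 0.72, still higher with melatonin.

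**Figure D3:**
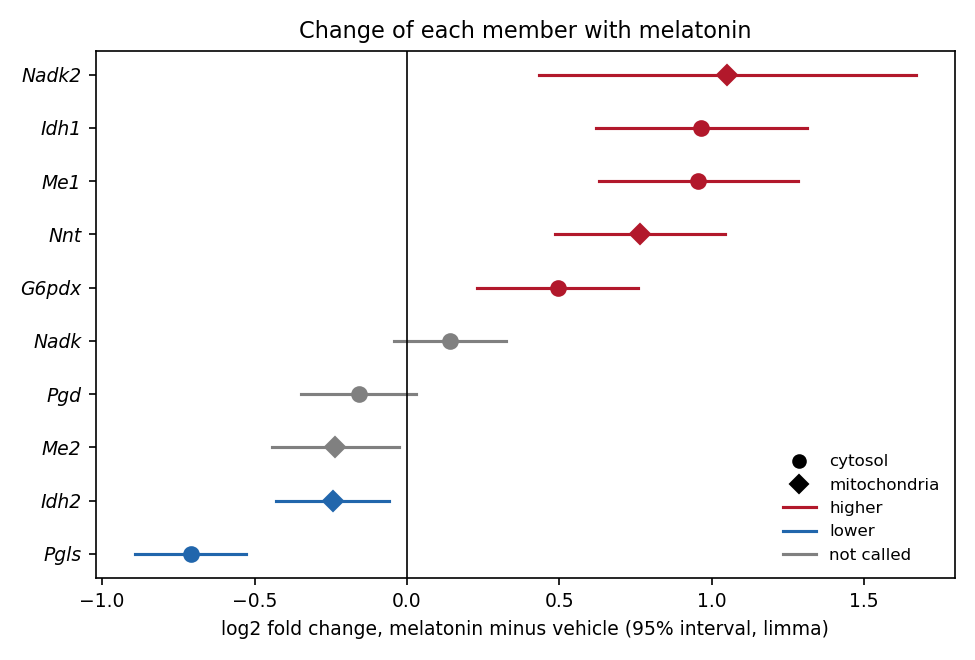
Log2 fold change (melatonin minus vehicle) of the 10 genes from limma, with 95% intervals as lines, circles for cytosolic and diamonds for mitochondrial enzymes, red for higher, blue for lower and gray for not called. Nadk2, Idh1, Me1, Nnt and G6pdx lie to the right, from 1.05 to 0.49, and Pgls lies farthest to the left at -0.71.

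Levels were compared between genes per kilobase of the canonical transcript. In vehicle samples Nadk was highest at 2580 ± 39.3 normalized counts per kilobase, followed by Pgls at 1951 ± 33.7, G6pdx at 1137 ± 32.0, Me2 at 1023 ± 59.9, Pgd at 997 ± 31.3 and Idh2 at 621 ± 9.81 (SD, n = 3 each). Nnt at 105 ± 14.6, Me1 at 101 ± 17.7, Idh1 and then Nadk2 at 86.0 ± 31.8 followed, and neighbours among these 4 did not differ beyond their spread, nor did Me2 from Pgd. Nnt lay clearly below Idh2. With melatonin G6pdx, at 1618 ± 289 per kilobase, stood above Pgls, at 1194 ± 76.3. The 4 genes with the lowest levels per kilobase all rose, with log2 fold changes from 0.76 to 1.05, and still had the lowest levels of the 10 with melatonin, 172 ± 34.7 to 195 ± 17.2 per kilobase. Per kilobase of coding sequence the same 4 genes were lowest in vehicle samples, while G6pdx stood above Pgls there. That denominator was chosen after the data were seen.

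Ratios within a sample do not depend on its size factor. The log2 ratio of Idh1 to Idh2 was -0.70, -0.27 and -0.80 with melatonin and -1.73, -1.65 and -2.02 with vehicle, a rise of 1.21 or 2.31-fold toward the cytosolic enzyme. The log2 ratio of Me1 to Me2 was -2.50, -2.49 and -2.28 with melatonin and -3.88, -3.54 and -3.41 with vehicle, a rise of 1.19 or 2.28-fold. Both pairs moved toward the cytosolic enzyme in every melatonin sample. The NAD kinases moved the other way. The log2 ratio of Nadk to Nadk2 was 3.52, 3.54 and 3.91 with melatonin and 5.22, 4.41 and 4.07 with vehicle, a difference of -0.91 toward the mitochondrial kinase, which was -0.58 without vehicle replicate 1, the sample with the highest ratio of Nadk over Nadk2. G6pdx was also set against Gpi1, the isomerase that sends glucose 6-phosphate down glycolysis, with log2 ratios of 1.04, 0.49 and 0.41 with melatonin and -0.26, -0.19 and -0.26 with vehicle. That ratio rose by 0.88, or 1.84-fold, and by 0.69 without melatonin replicate 1, the sample with the highest ratio of G6pdx over Gpi1. The groups did not overlap for any of the 4 ratios, and each gave p = 0.1 in a two-sided exact permutation test (0.1 adjusted over 4 ratios), the smallest value 3 against 3 samples can reach.

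**Figure D4:**
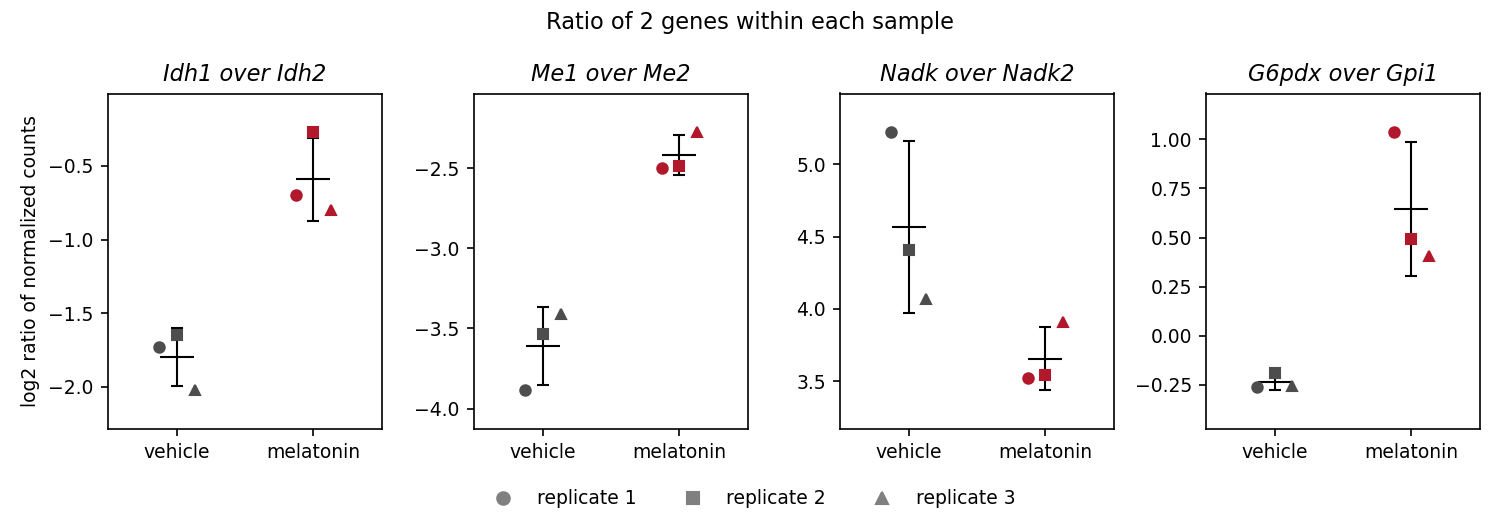
Log2 ratio of normalized counts within each sample for Idh1 to Idh2, Me1 to Me2, Nadk to Nadk2 and G6pdx to Gpi1, with points for samples, horizontal bars for means and error bars for the SD. The melatonin points lie above the vehicle points in 3 of the 4 panels and below them for Nadk to Nadk2.

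Over the 6 samples, the genes whose pattern was most like that of G6pdx, out of 9989 genes averaging 100 normalized counts or more, were Nr1d2 (Pearson r = 0.997), Klhl6 (0.997), Elk1 (0.996), Rell1 (0.996) and Senp7 (0.996), on log2(normalized count + 1). The points share their treatment groups, so these values describe the pattern and carry no test. Among the 10 genes, r with G6pdx was 0.961 for Nadk and ran from 0.732 to 0.833 for Nadk2, Nnt, Me1 and Idh1. Of the genes compared, 67.1% to 76.9% had a lower r than these 4, and 96.3% a lower r than Nadk. It was below 0 for Pgd, Me2, Idh2 and Pgls, from -0.390 to -0.892.

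Genes around these enzymes were counted on lists by role, with their median log2 fold change beside the median of -0.00 over all genes tested. Each count is to be read against the 24.5% of all genes that rose, the 24.7% that fell and the 49.2% called in either direction. Of 6 tested genes that supply NADPH by other routes, 1 rose and 2 fell (median -0.40), a share called close to that of all genes. Mthfd1, a cytosolic folate enzyme, fell from 3203 ± 147 to 1778 ± 337 normalized counts (log2 fold change -0.87, adjusted p = 0.000976 from limma), Glud1, glutamate dehydrogenase, fell by 0.57, and Mthfd2l, a mitochondrial folate enzyme, rose by 0.43 (adjusted p = 0.032 from limma). The Mthfd2l call was lost in several alternatives, among them those without melatonin replicate 2, vehicle replicate 1 or vehicle replicate 3. H6pd, the hexose-6-phosphate dehydrogenase of the endoplasmic reticulum, read 422, 397 and 396 with melatonin and 305, 384 and 414 with vehicle, groups that overlapped. Of 9 tested genes of the non-oxidative PPP, 2 rose and 2 fell (median -0.00). Tkt, transketolase, was lower at 6109 ± 93.4 against 8231 ± 170 normalized counts (log2 fold change -0.43, adjusted p = 0.00107 from limma), and Prps1 fell by 0.59. Shpk, sedoheptulose kinase, rose by 1.17, and Tktl1 rose by 1.64 from levels near the detection limit, 1.87 to 4.68 in vehicle samples. The Tktl1 call was lost whichever vehicle sample was left out.

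At the branch point of glucose 6-phosphate, 4 of 8 genes fell and the other 4 did not pass (median -0.24), a share called close to the 49.2% over all genes and with none higher. Hk2, an inducible hexokinase, was 504 ± 48.2 with melatonin and 1019 ± 13.1 with vehicle (log2 fold change -1.02, adjusted p = 0.000124 from limma). Gpi1 was 6055 ± 480 and 7910 ± 189 (log2 fold change -0.39, adjusted p = 0.00421 from limma). G6pc3, a glucose-6-phosphatase, fell by 0.72, and Hk3 fell by 3.46 with 3.74, 0 and 3.02 in melatonin samples. Of 12 genes that handle citrate, isocitrate and malate, 4 rose and 5 fell (median -0.10). Pcx, pyruvate carboxylase, rose from 335 ± 20.0 to 949 ± 85.2 (a ratio of 2.83, adjusted p = 3.3e-05 from limma) and Aco1, the cytosolic aconitase, by 0.68, while Idh3b and Idh3g, subunits of the NAD+-linked isocitrate dehydrogenase, fell by 0.78 and 0.58.

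Of 11 reductases that spend NADPH, 5 rose and 2 fell (median 0.17). Nqo1, a quinone reductase, was 7676 ± 1718 with melatonin and 2271 ± 171 with vehicle (log2 fold change 1.74, adjusted p = 6.4e-05 from limma). Blvrb, biliverdin reductase B, and Txnrd1, the cytosolic thioredoxin reductase, rose by 0.95 and 0.84, and Txnrd2, its mitochondrial counterpart, fell by 0.62. Of 6 tested subunits of the NADPH oxidase, which turns NADPH into superoxide, 5 fell and 1 did not pass (median -0.71). Ncf4 was 2337 ± 213 with melatonin and 5390 ± 23.3 with vehicle (log2 fold change -1.21, adjusted p = 2.8e-05 from limma) and Rac2 fell by 0.48. Ncf1 was near the detection limit, at 8.40, 3.28 and 0 with melatonin. Cybb, the catalytic subunit, read 23.3, 78.7 and 39.2 with melatonin and 56.0, 55.3 and 51.4 with vehicle, groups that overlapped. Of 12 biosynthetic genes, 4 rose and 5 fell (median -0.01), among them Kdsr, of sphingolipid synthesis, higher by 0.55, and Pycr1, of proline synthesis, lower with a log2 fold change of -1.12. Neither of the 2 NADPH phosphatases, Noct and Hddc3, was called in limma (0 of 2, with 0 at an unadjusted p under 0.05 and 0 with voom).

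Of 10 NRF2 regulators and classic targets, 8 rose and 1 fell (median 1.02), and 3 of the 10 also stand on the reductase list. Gclc, the catalytic subunit of the enzyme that limits glutathione synthesis, was 20745 ± 4647 with melatonin and 3110 ± 1098 with vehicle (log2 fold change 2.78, adjusted p = 0.000112 from limma). Nqo1 rose by 1.74, Gclm, the modifier subunit that pairs with Gclc, by 1.37, and Srxn1, sulfiredoxin, by 1.29. Slc7a11, a cystine importer, was the gene of the list that fell, from 166 ± 7.25 to 112 ± 7.79 (log2 fold change -0.56, adjusted p = 0.0125 from limma). Hmox1, a heme oxygenase, had a log2 fold change of -0.12 that did not pass.

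**Figure D5:**
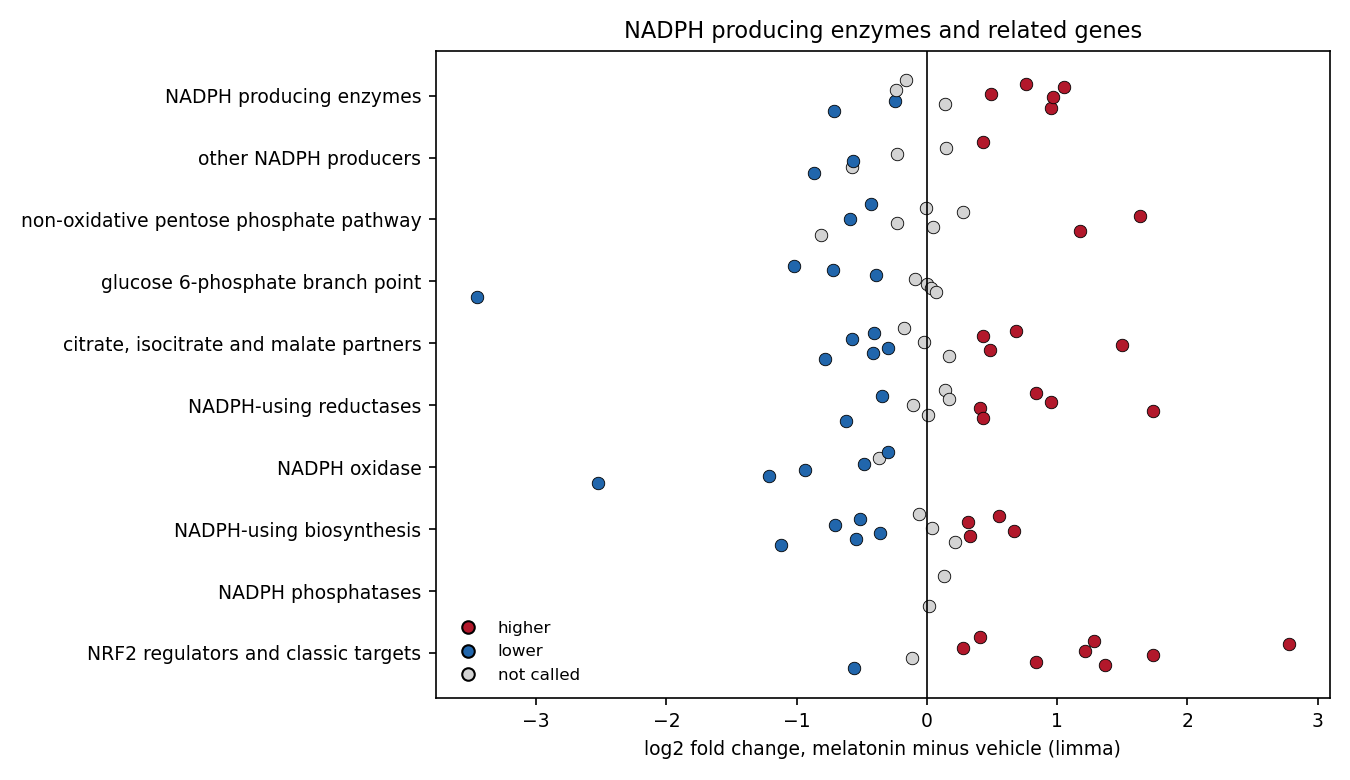
Log2 fold change (melatonin minus vehicle) of each tested gene on the lists, one row per list with the 10 enzymes on top, red for higher, blue for lower and gray for not called; height within a row only separates points. The NRF2 list lies mostly to the right of 0, and all 6 tested NADPH oxidase genes lie to its left.

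Summed markers of T cells, B cells, natural killer cells and macrophages were lower in every melatonin sample than in every vehicle sample, while those of granulocytes and lung epithelium overlapped between the groups. All 14 ILC2 markers were present, 2 called higher (Il1rl1 and Rora), 9 lower (among them Il7r, Klrg1, Il5, Il13 and Thy1) and 3 not called, Gata3 among them. Their summed level was 153134 to 172067 normalized counts with melatonin and 226158 to 241140 with vehicle. Most of that fall lay in Il5, from 83072 ± 3711 to 49950 ± 8873, and Il2ra, from 51596 ± 785 to 31066 ± 8367. Macrophage markers (6 of 7 in the table, C1qa at 0 in every melatonin sample, 2 of 6 called lower) summed to 308 to 2305 with melatonin and 3532 to 4453 with vehicle. Most of that sum was Chil3, which read 54.2, 1640 and 957 with melatonin and 2373, 3460 and 2878 with vehicle and did not pass (adjusted p = 0.0549 from limma), and Lyz2, which fell from 996 ± 92.2 to 487 ± 206, while Mrc1 overlapped between the groups. T cell markers (4 of 7, without Cd4, Cd5 and Cd8a) summed to 458 to 870 and 1210 to 1349, B cell markers (2 of 5) to 131 to 162 and 289 to 322, and natural killer cell markers (4 of 5) to 19.6 to 30.6 and 203 to 266. Most of the T cell sum was Cd3g, at 536 ± 186 with melatonin and 1062 ± 50.7 with vehicle. Trac, a T cell receptor gene, read 0 to 1.87 with melatonin and 5.60 to 13.1 with vehicle. Most of the B cell sum was Cd79b, at 142 ± 15.6 and 297 ± 16.9. Granulocyte markers (6 of 9) summed to 3.74 to 41.2 and 18.7 to 89.6, lung epithelial markers (4 of 6) to 1025 to 1236 and 911 to 2155, and the 1 endothelial or stromal marker of 5 in the table, Pecam1, to 310 to 416 and 1001 to 1066. The epithelial sum joins opposite moves: Epcam rose from 667 ± 67.6 to 1097 ± 116, while Scgb1a1, Sftpc and Sftpa1, secretory and surfactant genes, fell, Sftpc from 222 ± 146 to 5.01 ± 1.80 (SD, n = 3 each). Without melatonin replicates 2 and 3, which differ from the other libraries in sex-linked RNA, 6 of the 10 NADPH genes were higher and 3 lower, with Nadk gained as higher and Me2 as lower. That fit holds 1 melatonin sample, assumed to vary like the vehicle samples, so its calls rest on the spread of the vehicle samples. Among the related lists the other NADPH producers moved from 1 higher and 2 lower to 0 higher and 4 lower. The citrate, isocitrate and malate list moved from 4 higher and 5 lower to 5 and 6, the reductases from 5 and 2 to 6 and 3, the non-oxidative PPP from 2 and 2 to 2 and 3 and the biosynthetic list from 4 and 5 to 3 and 5. The counts of the other lists were the same, although within the NADPH oxidase list Ncf1 lost its call and Cybb gained one. In that fit 24.2% of all genes tested were higher and 26.6% lower. The part of these markers in the results was not tested.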

How the data were processed

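RNA from 3 melatonin and 3 vehicle ILC2 samples was sequenced by the study from a low-input kit that does not mark strand. Trimming was done by the authors in Partek Flow; STAR aligned the reads to mm39 (GRCm39). The authors assigned them to Gencode M33 genes with an expectation/maximization algorithm and divided by DESeq2 median-ratio size factors. Their methods state a removal of low genes, under 10 counts across samples, yet 1962 genes of the table stay under 10 normalized counts in every sample. The deposited values are therefore a signal, normalized counts, of which 60.2% lay within 0.01 of a whole read, so no count test was run on them. The value of 1 read in each library was estimated from low values, which gave the read totals. Gene names came from Gencode M39, which named 16334 of 16381 genes.

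Values were log2 transformed with a pseudocount of 1, genes reaching 10 in at least 1 sample were kept, and limma 3.58.1 (R 4.3.3, lmFit and eBayes with a mean-variance trend) compared the groups, with two-sided p-values adjusted by Benjamini-Hochberg over 14419 genes and a threshold of 0.05. Fold changes on the log2(value + 1) scale understate the change of low genes. The script was tested on simulated data. Genes named beside the 10 enzymes were, on each list, the called genes with the largest changes, at most 4, plus H6pd, Gpi1 and the 5 genes most like G6pdx. Slc7a11, Cybb, Hmox1, Chil3, Lyz2, Mrc1, Noct, Hddc3, Rwdd2a, Ikbkg, G6pd2 and Gm7049 were chosen after their values were seen. So were Gm48795, Gm7329, Il2ra, Cd3g, Cd79b and Trac. Some genes that this rule names are not reported here. The members and lists were chosen with earlier results of these data known. Alternatives covered the pseudocount, filter, scaling, variance trend, weights, voom on estimated counts, replicate block, corrections for length and GC, and leaving out samples or sex chromosomes. No block was used in the main fit, since the methods name no covariate. Replicates 1, 2 and 3 of the groups did not deviate together (correlations -0.05, 0.01 and -0.05).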

Additional observations from a re-analysis of the deposited data

How the results depend on the processing

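The 5 genes called higher (G6pdx, Me1, Idh1, Nnt and Nadk2) and Pgls, called lower, kept direction and call in each alternative that included them; leaving out chromosomes X and Y removed G6pdx from the fit. The number of the 10 genes called lower was 2, and it was 1 with libraries scaled to the same total, 1 with no variance trend, 4 with upper-quartile scaling, 4 with a transcript length correction, and 1 to 2 when single samples were left out. The share of all genes called lower was 24.7%, and in those settings 23.0%, 21.8%, 28.7%, 24.7% and 18.9% to 25.3%; upper-quartile scaling moved the median over all genes to -0.09. Genes of the non-oxidative PPP called numbered 4 of 9, with 7 of 9 under the length correction, where 23.4% of all genes were higher and 24.7% lower. They numbered 2 of 6 without chromosomes X and Y (24.6% and 24.9%), since that fit drops the X-linked Prps1, Prps2 and Tktl1, of which Prps1 and Tktl1 were called. NADPH oxidase genes called numbered 5, with 3 under quantile normalization and 3 to 5 when single samples were left out. Apart from the genes dropped with the sex chromosomes, the cause of these shifts was not tested. With the replicate block, 5 of the 10 genes were higher and 2 lower, as without it, although Me2 was gained (adjusted p = 0.0487 from limma) and Idh2 lost (0.0706), and 3160 genes of the table rose and 3278 fell; the replicate numbers did not pair the samples. Of 853 values for named genes under the alternatives, 812 kept their call, 29 lost it and 12 gained it, with no change of direction in a called gene. Named list genes that lost their call in at least 1 alternative were Mthfd2l, Tktl1, Txnrd2 and Ncf1, of which Mthfd2l (log2 fold change 0.39) and Ncf1 (-1.07) lost it without both melatonin samples with high Xist. The number of samples limits precision: the intervals of Pgd and Nadk include 0.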
